A study of Mus musculus with 55 samples.

Results

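The comparison described here is that of common myeloid progenitors (CMPs) from mice labelled Tet2 knockout (Tet2-/-) with CMPs from wild-type (WT) mice. Its 8 RNA-seq libraries, 4 labelled Tet2-/- and 4 labelled WT, were chosen by genotype and cell type in the sample labels, out of 55 libraries in the series, and every gene with enough reads was examined. The knockout mice were Tet2f/f, Mx1-Cre on a C57BL/6 background, and the Cre, whose Mx1 promoter answers to interferon, was induced at 4 weeks of age with 5 doses of poly(I:C) and the mice were analysed 16 weeks later. The deletion is therefore not confined to CMPs, and whether the WT mice also received poly(I:C) is not stated. CMPs were gated from bone marrow as Lin-cKit+Sca1-CD34int/+CD16/32int cells, of which the labels give 200 per library. The methods of the study give a larger approximate number of cells per group. The replicate numbers 2 to 5 occur in both genotypes, and each library stands for 1 mouse.

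CMPs are progenitors that give rise to granulocyte-macrophage progenitors (GMPs) and to megakaryocyte-erythroid progenitors (MEPs), and a CMP gate is known to hold cells already leaning to either side. PU.1 (Spi1) and the C/EBP factors are known to drive the granulocyte-macrophage side, and GATA1 and KLF1 the erythroid side. TET2 is a dioxygenase that oxidises 5-methylcytosine in DNA, and it is among the genes most often mutated in clonal hematopoiesis and myeloid malignancies.

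The libraries labelled Tet2-/- held 71372007 to 102148079 counts and the WT libraries 63166885 to 70924660, so the genotypes did not overlap in depth. Genes detected numbered 19119 to 19463 and 18569 to 19012. Transcripts of the mitochondrial genome made up 7.85 to 8.37% and 5.94 to 6.57% of these counts, again apart. The slope of log2 level (less the mean of each gene) on the GC content of the first 200 bases of a transcript was -0.15 to -0.05 per 10 percentage points in the former and 0.09 to 0.14 in the latter, without overlap. Thinning the libraries to equal depth gave 107 genes called higher and 632 lower, against 105 and 629 without it. No library stood apart within its genotype: the mean correlation of log2 levels with the other libraries of its genotype was 0.898 to 0.903, and with those of the other genotype 0.872 to 0.883.

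The identity of the cells was checked with genes of the gate and of the neighbouring populations, in counts scaled by library size (CPM) over the 46 libraries of the table. Mpo, the myeloperoxidase of the granulocyte lineage, ran at 1928 to 2896 CPM in WT CMPs, between the 7.5 to 32.3 of WT MEPs and the 18708 to 25184 of WT GMPs. Gata1 ran at 73.6 to 104 CPM in WT CMPs, against 2.9 to 6.56 in WT GMPs and 220.4 to 268 in WT MEPs. Fcgr3, which codes for CD16, had 13.5 to 21.9 CPM in WT CMPs and 179 to 295 in WT GMPs. The values that follow, here and in the rest of the text unless the 46 libraries are named, are scaled over the 8 CMP libraries alone. Of the 13 gate genes tested (Kit, Cd34, Fcgr3, Ly6a and others) none was called between genotypes in CMPs by edgeR. At an unadjusted p under 0.05, with DESeq2, which tested 15, and without WT replicate 2, 1 was called higher and 1 lower, and without replicate 2 labelled Tet2-/- 1 was called lower. Kit, the receptor by which the cells were gated, had 187 to 263 CPM in the libraries labelled Tet2-/- and 209 to 239 in WT, a log2 fold change (log2FC) of 0.11 (adjusted p = 0.724) by edgeR, and Cd34 had log2FC -0.21 (adjusted p = 0.464). Ly6a, which codes for Sca1, stayed at 1.58 to 5.66 and 0.692 to 9.38 CPM. Fcgr2b, a CD32 gene, did not overlap between the groups (23.2 to 32.6 against 41.2 to 52.7 CPM), at log2FC -0.69 (adjusted p = 0.0349), which is less than 2-fold. Fcgr3 had log2FC -0.60 (adjusted p = 0.131). Of the markers of mature cells, Cd3e of T cells, Ltf of neutrophils and C1qa of macrophages each stayed under 1 CPM in all 8 libraries on the scale of the 46 libraries. Others were not near 0. On that scale Nkg7, a gene of NK cells and T cells that WT GMPs held at 596 to 758 CPM, ran at 225 to 443 CPM in CMPs labelled Tet2-/- and 364 to 424 in WT CMPs. The summed level of the monocyte, macrophage and dendritic list was 257 to 547 CPM in the libraries labelled Tet2-/- and 384 to 832 in WT, where replicate 2 labelled Tet2-/- was the highest of its group and replicates 3, 4 and 5 at 262, 301 and 257 CPM were below every WT library. The sum of the mature neutrophil list was 18.6 to 30.9 CPM in the libraries labelled Tet2-/- and 17.8 to 35 in WT, with overlap. The sums of 2 lists did not overlap and were lower in the libraries labelled Tet2-/-: the B and plasma cell list, at 114 to 139 CPM in the libraries labelled Tet2-/- and 179 to 265 in WT, and the lymphoid list, at 252 to 311 CPM in the libraries labelled Tet2-/- and 342 to 445 in WT. Each of these 2 lists had 1 member called lower, in the lymphoid list the abundant Ighm described below. The 2 lists share members, and both calls were lost in the same fits: without replicate 2 labelled Tet2-/-, without WT replicate 4 and with all 46 libraries. They are therefore not counted as separate findings. Neither sum was taken without that member, so a fall across the members of either list is not shown. The part of these marker lists in the other changes was not tested.

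Tet2 itself (ENSMUSG00000040943, chromosome 3: 133463679-133545139, minus strand, mm10) was not detectably lower in the libraries labelled Tet2-/-. Their values, for replicates 2, 3, 4 and 5, were 28, 6.72, 15.9 and 20.5 CPM, and those of WT were 25.5, 26.2, 19.5 and 21.1 CPM. The groups overlapped, and the log2 fold change was -0.37 (SE 0.37, adjusted p = 0.667) by edgeR's quasi-likelihood test (p = 0.343 by a two-sided exact permutation test, where 4 against 4 libraries cannot go under 0.0286). The counts are sums over the gene, so they do not show whether an exon is missing and do not check the labels. The groups are therefore named by their labels throughout.

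Of 16047 genes tested, 105 were called higher in the libraries labelled Tet2-/- and 629 lower, at an adjusted p under 0.05 (edgeR, Benjamini-Hochberg) and a change of at least 2-fold. These are 0.654% and 3.92% of the genes tested, or 4.57% in either direction, the background for the counts of list members that follow. The values of the 2 genotypes did not overlap for 15.7% of all genes tested, with 6.46% higher and 9.24% lower. The median log2 fold change over all genes tested was 0.03. DESeq2 called 321 higher and 914 lower, and a fit that pooled the spread of all 46 libraries called 12 and 273. In every alternative fit run, more genes were called lower than higher. Protein-coding genes made up 91.6% of the genes called lower, 70.5% of those called higher and 75.3% of all genes tested.

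**Figure D1:**
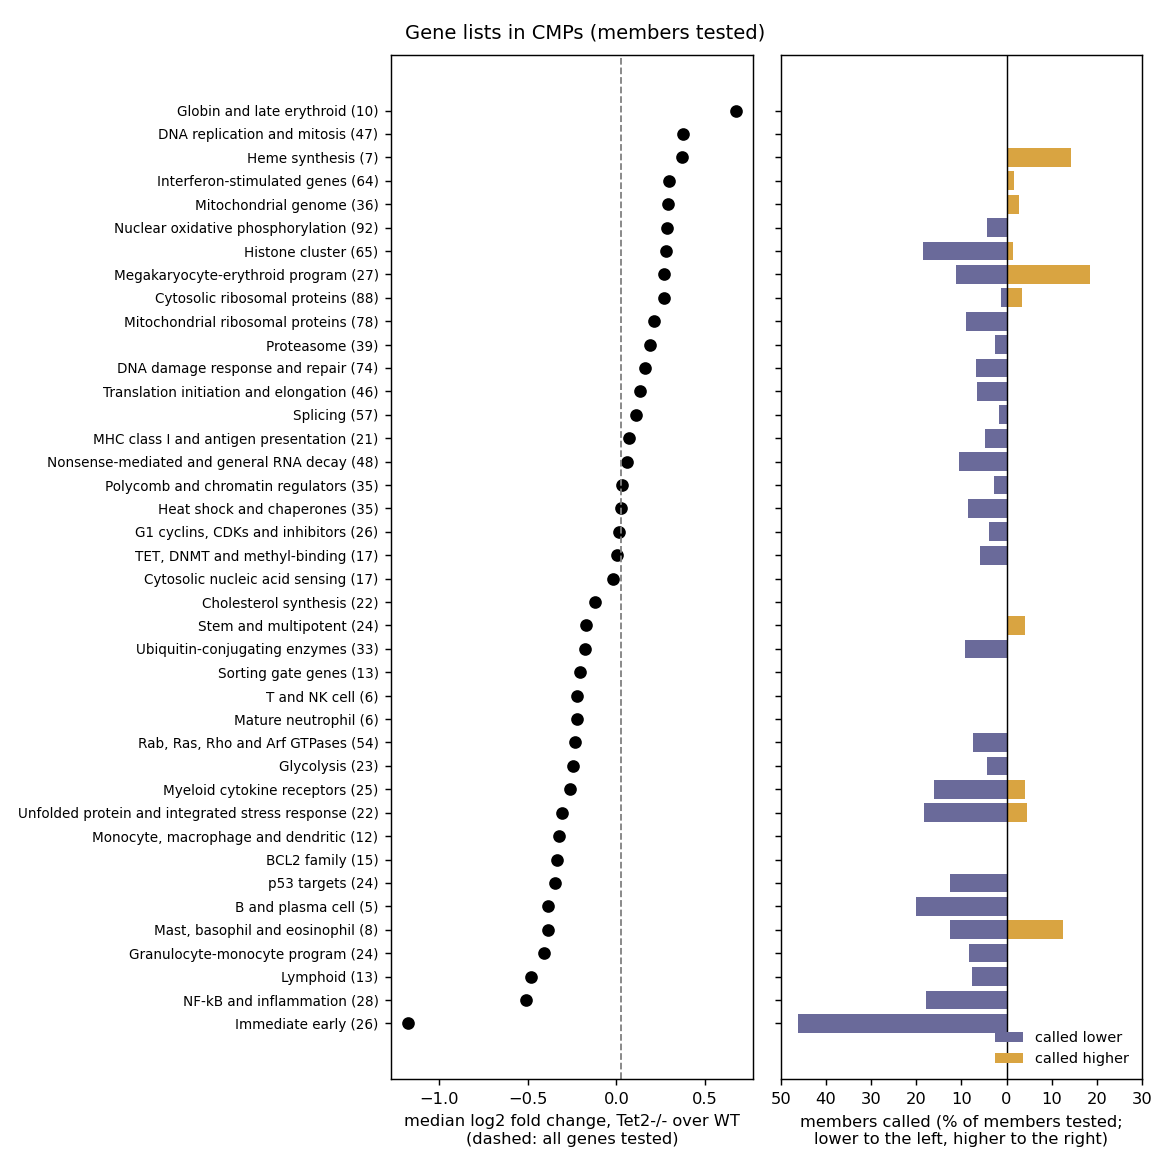
Each row is a gene list with the number of its members tested in CMPs; the left panel gives the median log2 fold change of the members (labelled Tet2-/- over WT, 4 libraries each; dashed line, median of all genes tested), and the right panel the share of members called lower (to the left) and higher (to the right). The immediate early genes lie lowest, with a median of -1.18 and 12 of 26 members called lower, and the megakaryocyte-erythroid program has the largest share called higher, 5 of 27.

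Several genes of the erythroid lineage were higher in the CMP libraries labelled Tet2-/-. Of the megakaryocyte-erythroid program, 5 of 27 members tested were called higher and 3 lower, with a median log2 fold change of 0.27 against 0.03 over all genes. The list was mixed: 16 of the 27 had a change above 0, against 8349 of 16047 genes tested. The groups did not overlap for 6 members that were higher and 5 that were lower, against 6.46% and 9.24% of all genes. The members called higher were Car1, Car2, Rhag, Ermap and Epor, genes of the erythroid side, though Car2 is not confined to it. On the scale of the 46 libraries Car2 had 1567 to 1887 CPM in WT short-term stem cells. It had 414 to 863 CPM in WT CMPs and 4170 to 4877 in WT MEPs. Car1 (ENSMUSG00000027556, chromosome 3: 14766216-14808368), a carbonic anhydrase of red cells, had 2743, 3963, 3243 and 5882 CPM in the libraries labelled Tet2-/- and 1458, 1034, 392 and 984 CPM in WT. All 4 of the former lay above all 4 of the latter, and the log2 fold change was 2.03 (SE 0.38, adjusted p = 0.0111). Car2 (ENSMUSG00000027562, chromosome 3: 14886273-14900770), a second carbonic anhydrase, had 1159, 2241, 1746 and 2092 CPM and in WT 952, 711, 465 and 652 CPM, a log2 fold change of 1.38 (SE 0.25, adjusted p = 0.00948). Rhag (ENSMUSG00000023926, chromosome 17: 40811126-40840754) and Rhd (ENSMUSG00000028825, chromosome 4: 134864536-134896172) code for parts of the Rh complex of the red cell membrane. Rhag stood at 88.7, 158, 164 and 164 CPM against 65.4, 17.1, 9.95 and 35.9 in WT, log2FC 2.16 (SE 0.52, adjusted p = 0.0385). For Rhd the values were 121, 157, 157 and 198 CPM and 61.4, 21.3, 9.77 and 25 CPM, log2FC 2.43 (SE 0.48, adjusted p = 0.0156). In both genes the WT library of replicate 2 was the highest of its group and the library labelled Tet2-/- of replicate 2 the lowest of its own, yet they did not meet.

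Ermap (ENSMUSG00000028644, chromosome 4: 119175457-119190011), which codes for a membrane protein of erythroid cells, had 57.5, 120.3, 72.6 and 113 CPM in the libraries labelled Tet2-/- and 29.1, 22.9, 12.6 and 17.9 in WT, a log2 fold change of 2.13 (SE 0.32, adjusted p = 0.00342). Epor, the erythropoietin receptor that early erythroid cells need to survive, rose less (ENSMUSG00000006235, chromosome 9: 21958897-21963506). It had 31, 53.8, 53.4 and 41.2 CPM against 27, 17.3, 22.2 and 21.3, log2FC 1.03 (SE 0.22, adjusted p = 0.0222). Cpox (ENSMUSG00000022742, chromosome 16: 58670292-58717636), an enzyme of heme synthesis, was the 1 member called of the 7 heme synthesis genes tested, with 29.9, 57.3, 19.9 and 40.8 CPM against 14.8, 10.6, 7.47 and 14.7 and log2FC 1.63 (SE 0.35, adjusted p = 0.0229). The median of those 7 genes was 0.37. Further genes that red cell precursors use, chosen after their values were seen, were called higher as well. Blvrb, a biliverdin reductase, was at 237 to 386 CPM against 87.9 to 199.6 in WT, log2FC 1.31 (adjusted p = 0.0134). Pklr, the pyruvate kinase of liver and red cells, was at 9.89 to 21.4 against 0.268 to 3.41 CPM, log2FC 2.92 (adjusted p = 0.0245). Ctse, the protease cathepsin E, was at 135 to 262 against 53.8 to 130.4 CPM, log2FC 1.36 (adjusted p = 0.0225). The 10 tested genes of the globin and late erythroid list had a median of 0.68, but edgeR called none and their summed level overlapped, at 158 to 237 CPM in the libraries labelled Tet2-/- and 52.9 to 198 in WT. DESeq2 called 2 of them higher, as did an unadjusted p under 0.05, and leaving out WT replicate 2 or 4 gave 1 each. Hba-a1, an alpha globin gene with a near-identical copy, had 38.5 to 49.7 against 2.1 to 63.4 CPM. In bulk libraries, a larger share of erythroid-leaning cells in the gate and more of this RNA per cell cannot be told apart.

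All 11 erythroid genes described (Car1, Car2, Rhag, Rhd, Ermap, Slc40a1, Epor, Cpox, Blvrb, Ctse and Pklr) kept a positive change in every alternative fit, but their calls depended on the libraries. These genes were described because they were called higher in the same libraries, so the kept sign is no independent support. Leaving out 1 library at a time left between 5 (without WT replicate 3) and 11 (without replicate 2 labelled Tet2-/-) of them called, and 6 remained without replicate 3 labelled Tet2-/-, 7 without its replicate 4, 6 without its replicate 5, 10 without WT replicate 2, 7 without WT replicate 4 and 6 without WT replicate 5. In the fit of all 46 libraries 2 of the 11 were called.

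**Figure D2:**
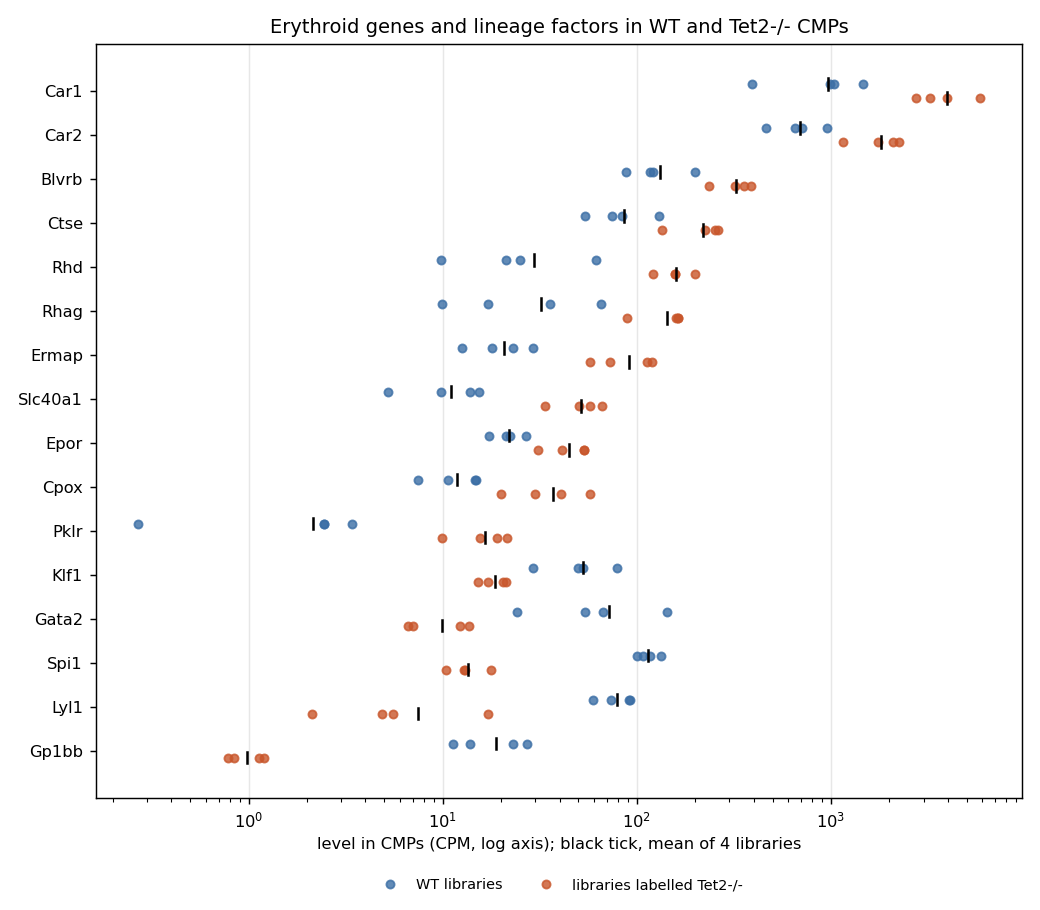
Level of each gene in CPM on a log axis in the 4 WT libraries (blue) and the 4 libraries labelled Tet2-/- (orange), with a black tick at the mean of each group. From Car1 to Pklr the orange points lie to the right of the blue, as with Rhd at 121 to 198 against 9.77 to 61.4 CPM, and from Klf1 to Gp1bb to the left, as with Spi1 at 10.4 to 17.7 against 99.9 to 133.

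Of the lineage transcription factor genes described here, Spi1, Gata2, Klf1 and Lyl1 were called lower and Gata1 was not called. Spi1 (ENSMUSG00000002111, chromosome 2: 91082390-91115756), which codes for PU.1, had 17.7, 10.4, 13 and 12.9 CPM in the libraries labelled Tet2-/- and 107, 99.9, 133 and 117 CPM in WT. The gap between the groups was wide against the spread within them, and the log2 fold change was -3.08 (SE 0.19, adjusted p = 2.89e-05). Gata2 (ENSMUSG00000015053, chromosome 6: 88193891-88207032), a factor of stem cells, early progenitors and mast cells, had 6.6, 12.3, 13.6 and 7.04 CPM against 24.1, 142, 67.1 and 53.9, log2FC -2.86 (SE 0.51, adjusted p = 0.00944). WT replicate 2 was the lowest WT library for Gata2 and replicate 3 the highest. Klf1 (ENSMUSG00000054191, chromosome 8: 84901928-84905291), the factor that switches on many genes of red cells, fell while the erythroid genes above rose. It had 20.5, 21.3, 17 and 15.2 CPM against 52.7, 49.9, 29.2 and 78.7, log2FC -1.51 (SE 0.28, adjusted p = 0.0113). Lyl1 (ENSMUSG00000034041, chromosome 8: 84701457-84704715), a basic helix-loop-helix factor of early progenitors chosen after its values were seen, had 17.1, 2.13, 5.57 and 4.88 CPM against 59.7, 74, 92.1 and 90.8, log2FC -3.41 (SE 0.57, adjusted p = 0.0066). Gata1 was not called, at 90.4 to 135 against 82.7 to 115 CPM and log2FC 0.35 (adjusted p = 0.284). Gp1bb (ENSMUSG00000050761, chromosome 16: 18620317-18622403), a chain of the platelet receptor for von Willebrand factor, had 1.19, 1.13, 0.839 and 0.78 CPM against 11.3, 13.8, 23 and 27.2, log2FC -4.22 (SE 0.37, adjusted p = 0.000172). Klf1, Gata2 and Gp1bb were the 3 members of the megakaryocyte-erythroid program called lower. With the replicate number as a block 2 members of that list were called lower, and in the fit of all 46 libraries 0. Platelet genes beside Gp1bb were not called, with Pf4 at log2FC 0.49 (adjusted p = 0.485) and Itga2b at log2FC 0.39 (adjusted p = 0.638).

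Beside PU.1, the granulocyte-monocyte program showed 1 further call. 0 of 24 members tested were called higher and 2 lower, Spi1 and Gsr, the glutathione reductase gene (15.5 to 22 against 42.4 to 56.7 CPM, log2FC -1.34, adjusted p = 0.00163). The median of the 24 members was -0.41, and 3 had a change above 0. Mpo had 2055, 2478, 2286 and 1799 CPM against 2127, 2547, 3251 and 2578, log2FC -0.29 (adjusted p = 0.318), and Elane, the neutrophil elastase gene, log2FC -0.25 (adjusted p = 0.75). The summed level of the program was 8036 to 9036 CPM in the libraries labelled Tet2-/- and 9214 to 11437 in WT, while that of the megakaryocyte-erythroid program was 6500.3 to 11289.6 CPM in the libraries labelled Tet2-/- and 2911 to 4383 in WT. Neither sum overlapped between genotypes, but each rested on its most abundant members. Without Car1 and Car2 the megakaryocyte-erythroid sum was 2242 to 3316 against 1973 to 2603 CPM, and without Mpo and Srgn the granulocyte-monocyte sum was 4018 to 5321 against 4809 to 6342 CPM, both with overlap, a split made after the values were seen. The part that these sums play in the other changes was not tested. Of the markers of other cells, 1 of 24 stem and multipotent genes was called (Mllt3, higher at 37.5 to 58.1 against 11.7 to 26 CPM and log2FC 1.44, adjusted p = 0.00935), and 1 of 13 lymphoid genes (Ighm, the IgM heavy chain, lower at 70.2 to 85.1 against 134 to 209.8 CPM and log2FC -1.03, adjusted p = 0.00389). The lymphoid call was lost without replicate 2 labelled Tet2-/-, without WT replicate 4 and in the fit of all 46 libraries. That fit also called no member of the stem and multipotent list. Of the mast cell, basophil and eosinophil list, 1 of 8 members tested was called higher and 1 lower, with a median of -0.39 and 3 above 0. The lower one was Gata2, and the fit of all 46 libraries called no member of this list. Cpa3 (ENSMUSG00000001865, chromosome 3: 20215620-20242181), the carboxypeptidase of mast cells, was higher at 509, 235, 349.5 and 323 CPM against 141, 107, 148 and 123, log2FC 1.44 (SE 0.22, adjusted p = 0.00399), and Mcpt8, a basophil protease gene, overlapped at 20.4 to 77.7 and 22.6 to 45.1 CPM on the scale of the 46 libraries. edgeR called no gene among 6 tested for mature neutrophils, 12 for monocytes, macrophages and dendritic cells, or 6 for T and NK cells. DESeq2 called 1 lower in each of the first 2 lists, as did edgeR at an unadjusted p under 0.05, and none of the T and NK cell list.

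Among the genes with the largest rise, 3 handle zinc, copper and iron (Mt2, Atp7b and Slc40a1), a grouping made after the values were seen. Mt2 (ENSMUSG00000031762, chromosome 8: 94172664-94173568), a metallothionein that binds zinc and copper, had 60.5, 107, 69.1 and 119 CPM in the libraries labelled Tet2-/- and 22, 15, 6.69 and 12.8 in WT, log2FC 2.65 (SE 0.37, adjusted p = 0.00259). Its neighbour Mt1 (ENSMUSG00000031765, chromosome 8: 94179082-94180327), chosen after its values were seen, had 167, 229, 197 and 261 CPM against 109, 80.9, 59.8 and 99.9, log2FC 1.29 (SE 0.21, adjusted p = 0.00523). In both genes the 4 libraries labelled Tet2-/- were the higher ones, and WT replicate 4 was the lowest of all. Atp7b (ENSMUSG00000006567, chromosome 8: 21992785-22060305), a copper-transporting ATPase, had 42.1, 56.9, 46.3 and 78.6 CPM against 18.4, 9.48, 7.82 and 10.9, log2FC 2.26 (SE 0.31, adjusted p = 0.00239). Slc40a1 (ENSMUSG00000025993, chromosome 1: 45908068-45926523), which codes for the iron exporter ferroportin, had 33.8, 57.3, 50.3 and 65.8 CPM against 13.8, 9.76, 5.22 and 15.4, log2FC 2.23 (SE 0.35, adjusted p = 0.00448). All 4 of these genes were higher in WT MEPs than in WT CMPs and GMPs, as was Car1. On the scale of the 46 libraries (mean ± SD, n = 4 each), the CPM in WT MEPs, CMPs and GMPs were 329 ± 52.7, 12.7 ± 5.77 and 0.499 ± 0.167 for Mt2, 715 ± 71.9, 78.6 ± 20.1 and 109 ± 14.8 for Mt1, 126 ± 17.9, 10.5 ± 4.3 and 2.6 ± 1.51 for Atp7b, 104 ± 24.1, 9.95 ± 4.15 and 21.4 ± 3.59 for Slc40a1 and 12926 ± 749, 871 ± 399 and 7.36 ± 6.15 for Car1. The part that this shared level plays in their change was not tested.

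The promoters of Mt2 and Mt1 are shown because these 2 genes rose together and metal response elements (MREs), whose core is TGCACNC or TGCGCNC, are the known route by which metals act on them. The motif was chosen after the calls were seen, and its part in the change was not tested. The sequences are from RefSeq (GRCm38.p6) and run over the 250 bases before the start site, with matches to the core on either strand in capitals (Mt2 promoter, chr8:94172368-94172617, plus strand; Mt1 promoter, chr8:94178839-94179088, plus strand):
Mt2: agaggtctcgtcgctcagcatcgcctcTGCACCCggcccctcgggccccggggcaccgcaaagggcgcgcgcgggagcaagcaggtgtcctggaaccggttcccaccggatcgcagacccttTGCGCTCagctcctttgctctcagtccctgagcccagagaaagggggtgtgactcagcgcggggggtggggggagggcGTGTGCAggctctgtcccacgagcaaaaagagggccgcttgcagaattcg
Mt1: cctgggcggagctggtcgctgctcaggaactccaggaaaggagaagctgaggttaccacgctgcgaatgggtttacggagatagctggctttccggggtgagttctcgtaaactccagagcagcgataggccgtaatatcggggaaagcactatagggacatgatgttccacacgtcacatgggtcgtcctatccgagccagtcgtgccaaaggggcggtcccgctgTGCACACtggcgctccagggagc
Mt2 held 3 matches, beginning 223, 128 and 50 bases before the start site, and Mt1 held 1, 23 bases before it. The core is short, and 29.6% of the 10262 tested genes with a promoter in that table hold a match, against 31.2% of genes called higher and 32.9% of those called lower.

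For the erythroid genes, the promoters of Epor and Rhd are shown, both with 1 match to AGATAA, a form of the site that GATA factors bind (TTATCT on the other strand; Epor promoter, chr9:21963577-21963826, minus strand; Rhd promoter, chr4:134864286-134864535, plus strand):
Epor: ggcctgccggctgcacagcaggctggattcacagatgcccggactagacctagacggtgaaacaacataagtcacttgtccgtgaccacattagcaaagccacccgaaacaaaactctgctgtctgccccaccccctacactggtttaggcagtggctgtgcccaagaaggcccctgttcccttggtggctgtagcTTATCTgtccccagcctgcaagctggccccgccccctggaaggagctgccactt
Rhd: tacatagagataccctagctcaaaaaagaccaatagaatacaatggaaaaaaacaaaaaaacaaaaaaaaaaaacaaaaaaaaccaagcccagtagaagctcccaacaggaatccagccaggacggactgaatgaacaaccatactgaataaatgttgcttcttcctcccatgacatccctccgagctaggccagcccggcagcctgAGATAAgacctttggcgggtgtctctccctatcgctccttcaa
The match lies 54 bases before the start site of Epor and 43 before that of Rhd. Such a match was found in 9.38% of the 64 promoters of genes called higher, 3.68% of the 462 of genes called lower and 6.15% of all. The 2 promoters shown are ones that hold a match. Of the 27 members of the megakaryocyte-erythroid program 20 had a promoter sequence, and 2 of these (10%) hold a match, Epor and Tal1. Tal1 was not called, at log2FC 0.03. No match was found for Rhag or Ermap in these 250 bases. These shares are descriptions without a test, and the motif was chosen after the calls were seen.

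The other genes with the largest rise have varied roles. Pfas (ENSMUSG00000020899, chromosome 11: 68985697-69008460), an enzyme of purine synthesis, had 141, 117, 161 and 180.3 CPM in the libraries labelled Tet2-/- and 2.98, 1.44, 1.99 and 6.44 in WT, log2FC 5.53 (SE 0.48, adjusted p = 0.000171). In the other populations the libraries labelled Tet2-/- varied more: on the scale of the 46 libraries it had 2.01 to 187 CPM in MEPs labelled Tet2-/- and 2.73 to 6.0 in WT MEPs, and 8.49 to 92.5 against 76 to 93 in GMPs. Tspan8 (ENSMUSG00000034127, chromosome 10: 115816832-115849893), a tetraspanin, had 39.4, 42.5, 44.1 and 60.1 CPM against 13.2, 8.85, 5.03 and 6.12, log2FC 2.48 (SE 0.32, adjusted p = 0.00159). Slc38a5, an amino acid transporter of red cell precursors, was at 64.8 to 111 against 12 to 41.2 CPM, log2FC 2.07 (adjusted p = 0.011). Slc25a21, a carrier of the mitochondrial membrane, was at 37 to 87 against 2.32 to 17.9 CPM, log2FC 2.54 (adjusted p = 0.021). Aldh1a7, an aldehyde dehydrogenase, was at 9.6 to 36.2 against 3.23 to 6.34, log2FC 2.46 (adjusted p = 0.00604). Sh2d4a had log2FC 2.46 (adjusted p = 0.00395), Myh10, a nonmuscle myosin heavy chain, log2FC 2.44 (adjusted p = 0.0417), and Nxpe2 log2FC 2.17 (adjusted p = 0.0177). None of these 8 genes overlapped between the groups, which the rule for naming them required. WT replicate 4 was the lowest library for Slc25a21, at 2.32 CPM, and for Myh10, at 0.918 CPM.

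Some entries with a large change share sequence with another gene. The table has 2 entries named Nnt, the mitochondrial nicotinamide nucleotide transhydrogenase, a gene known to carry a deletion in the C57BL/6J substrain. One (ENSMUSG00000116207, chromosome 13: 119335528-119408952) had 32.4, 52.8, 50.5 and 26.5 CPM in the libraries labelled Tet2-/- and 0 counts in the 4 WT libraries, so it was at least 918-fold higher, taking 3 counts per WT library as the floor. The other (ENSMUSG00000025453, chromosome 13: 119335448-119408997) had 6.16, 4.9, 5.3 and 4.85 CPM against 58.1, 49.5, 67.9 and 55, log2FC -3.43 (SE 0.17, adjusted p = 1.10e-05). Both entries were called in the same directions in GMPs and MEPs. The substrains of the 2 groups are not given in the sources used here and their part was not tested. Processed copies of the ribosomal protein gene Rps3a1 behaved alike. Rps3a2 (ENSMUSG00000062611, chromosome 14: 88123017-88123808) had 912, 671, 687 and 800.4 CPM against 27.3, 25.9, 24.4 and 24, log2FC 4.92 (SE 0.14, adjusted p = 3.68e-07), Rps3a3 had 569 to 749 against 13.6 to 21.8 CPM (5.12) and Gm5586 81.6 to 141 against 2.95 to 3.48 (4.98). The parent Rps3a1 had 1849 to 2412 against 2484 to 3122 CPM, log2FC -0.39 (adjusted p = 0.076). Reads of near-identical copies may be split between them by the counting, so these 6 entries are uncertain.

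Of the 15 genes with the largest fall named by the rule, 7 (Mrps24, Ndufaf6, Chchd10, Iscu, Bola3, Atp23 and Sdhaf1) code for mitochondrial proteins, a grouping made after the values were seen and not tested. The 3 mitochondrial gene lists, described after these genes, had medians above 0. Iscu (ENSMUSG00000025825, chromosome 5: 113772748-113778288), the scaffold on which iron-sulfur clusters are built, had 5.29, 3.38, 4.9 and 5.9 CPM in the libraries labelled Tet2-/- and 98, 80.0, 70.3 and 65.7 in WT, log2FC -4.0 (SE 0.23, adjusted p = 2.53e-05). Bola3 (ENSMUSG00000045160, chromosome 6: 83349147-83360136), a later factor of the same path, had 6.94, 5.48, 3.8 and 5.56 CPM against 71, 61, 63.8 and 69.2, log2FC -3.60 (SE 0.21, adjusted p = 2.53e-05). In both genes the gap between the groups was wide against the spread within them. Chchd10, a protein of the intermembrane space, was at 0.711 to 1.74 against 23.4 to 27.8 CPM, log2FC -4.32 (adjusted p = 5.70e-05). Ndufaf6, an assembly factor of complex I, was at 1.02 to 2.49 against 27.1 to 33, log2FC -4.05 (adjusted p = 7.10e-05), and Sdhaf1, an assembly factor of complex II, at 1.41 to 3.16 against 22 to 36.2, log2FC -3.50 (adjusted p = 0.000176). Atp23 had log2FC -3.96 (adjusted p = 0.000228) and Mrps24, a protein of the mitochondrial ribosome, log2FC -4.15 (adjusted p = 0.00027).

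Of the mitochondrial ribosomal proteins, 0 of 78 members tested were called higher and 7 lower (Mrps24, Mrps26, Mrps30, Mrps34, Mrps15, Mrps35 and Mrpl3), while the median of all 78 was 0.21 and 63 were above 0. Of the nuclear genes of oxidative phosphorylation, 0 of 92 members tested were called higher and 4 lower, with a median of 0.28 and 78 above 0. The 4 were Uqcrfs1, the Rieske iron-sulfur protein of complex III (39.9, 31.9, 27.1 and 29.9 CPM against 296, 262, 281 and 286, log2FC -3.12, SE 0.14, adjusted p = 5.45e-06), Cox5a of complex IV (20.7 to 59.6 against 263 to 282 CPM, log2FC -2.93, adjusted p = 0.000357), Ndufab1 of complex I (log2FC -1.99, adjusted p = 0.00384) and Ndufaf6. Of 36 genes of the mitochondrial genome 1 was called, the 12S ribosomal RNA mt-Rnr1, higher at 1986 to 2899.5 against 831 to 1391 CPM and log2FC 1.24 (adjusted p = 0.00322), and the median was 0.29. With levels corrected for the GC content of the transcript start, the median of the mitochondrial genome was 0.04.

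The other 8 genes named for their fall have varied roles. Rnaset2a (ENSMUSG00000095687, chromosome 17: 8115445-8148097), a lysosomal ribonuclease, had 7.47, 8.64, 8.43 and 12.8 CPM in the libraries labelled Tet2-/- and 189, 169.7, 207 and 185 in WT, log2FC -4.33 (SE 0.20, adjusted p = 5.45e-06). It has a near-identical copy, Rnaset2b, so reads may be split between them and the value is uncertain. Nenf, the secreted factor neudesin, was at 0.569 to 1.89 against 22.4 to 32.9 CPM, log2FC -4.65 (adjusted p = 0.000137). Apoe, the lipid carrier apolipoprotein E, had 34.9, 24.3, 22.6 and 21.6 CPM against 531, 341, 185 and 173, log2FC -3.57 (adjusted p = 0.000535). Bambi, a decoy receptor of TGF-beta signals, was at 1.19 to 3.06 against 26.7 to 33.7, log2FC -3.65 (adjusted p = 0.000158). Sys1, which serves traffic at the Golgi, was at 2.66 to 9.71 against 55.5 to 84.7, log2FC -3.70 (adjusted p = 0.000499). Znhit2 had log2FC -4.97 (adjusted p = 0.0111), Lysmd2 log2FC -4.07 (adjusted p = 0.000204) and the histone gene Hist1h2ag log2FC -3.78 (adjusted p = 0.0277). Within WT, Hist1h2ag was split into 9.02 and 4.46 CPM in replicates 2 and 3 and 57.9 and 71.3 CPM in replicates 4 and 5.

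Immediate early genes, which cells switch on within minutes of a stimulus and which include the AP-1 factors, held the largest share of lower calls of any list. Of this list, 0 of 26 members tested were called higher and 12 lower, and 1 (Egr2) had a change above 0. The median log2 fold change was -1.18, and -1.16 with levels corrected for the GC content of the transcript start. Dusp1 (ENSMUSG00000024190, chromosome 17: 26505590-26562128), a phosphatase that turns off MAP kinases, had 133, 113, 143 and 98.9 CPM in the libraries labelled Tet2-/- and 624, 853, 720.3 and 1252 in WT, log2FC -2.82 (SE 0.23, adjusted p = 0.000122). Ier2 (ENSMUSG00000053560, chromosome 8: 84661331-84662852) had 99.7, 61.3, 105 and 45.1 CPM against 392, 467, 485 and 596, log2FC -2.64 (SE 0.28, adjusted p = 0.000444). Atf3 (ENSMUSG00000026628, chromosome 1: 191170296-191218039), a stress-induced transcription factor, had 15.8, 10.8, 15.7 and 9.84 CPM against 50.8, 70.8, 70.7 and 57.5, log2FC -2.26 (SE 0.22, adjusted p = 0.00027). Dusp2 (ENSMUSG00000027368, chromosome 2: 127336159-127338376), another phosphatase of MAP kinases, had 52, 40.1, 51.7 and 38.8 CPM against 200.0, 154, 183 and 118, log2FC -1.84 (SE 0.19, adjusted p = 0.000386). In these 4 genes every WT library lay above every library labelled Tet2-/-. The AP-1 genes Junb (16.9 to 39.8 against 107 to 225 CPM, log2FC -2.27, adjusted p = 0.00258) and Jun (69 to 96.5 against 153 to 247, log2FC -1.19, adjusted p = 0.00323) were called lower too, as were Fosl2, Jund, Nr4a1, Klf2, Klf6 and Ier5. Fos had 431, 581, 439 and 214 CPM against 587, 865, 837 and 1100.1 and missed the threshold, at log2FC -1.02 (adjusted p = 0.0685), and Egr1 overlapped, at log2FC -0.37 (adjusted p = 0.644). Leaving out 1 library at a time left 9 to 12 of the 12 called, and 7 were called in the fit of all 46 libraries. With the replicate number as a block Egr2 too had a change below 0.

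The Dusp1 promoter is shown because Dusp1 fell most of these genes and holds the 8-base cAMP response element TGACGTCA (CRE), a known site of induction for immediate early genes (Dusp1 promoter, chr17:26508473-26508722, minus strand; match in capitals):
Dusp1: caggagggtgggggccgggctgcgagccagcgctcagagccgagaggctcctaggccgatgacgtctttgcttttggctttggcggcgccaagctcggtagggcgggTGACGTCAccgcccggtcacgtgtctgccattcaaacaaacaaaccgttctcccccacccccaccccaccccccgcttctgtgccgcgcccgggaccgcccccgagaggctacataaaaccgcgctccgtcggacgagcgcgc
The match begins 143 bases before the start site. Of the 22 immediate early genes with a promoter in the table, 3 hold the element in these 250 bases (Dusp1, Btg2 and Ppp1r15a). Over all tested genes 2.69% hold it. The element was chosen after the calls because Dusp1 holds it, so the count is a description and was not tested. Btg2 and Ppp1r15a were not called, at log2FC -0.89 (adjusted p = 0.0344) and log2FC -0.54 (adjusted p = 0.21).

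**Figure D3:**
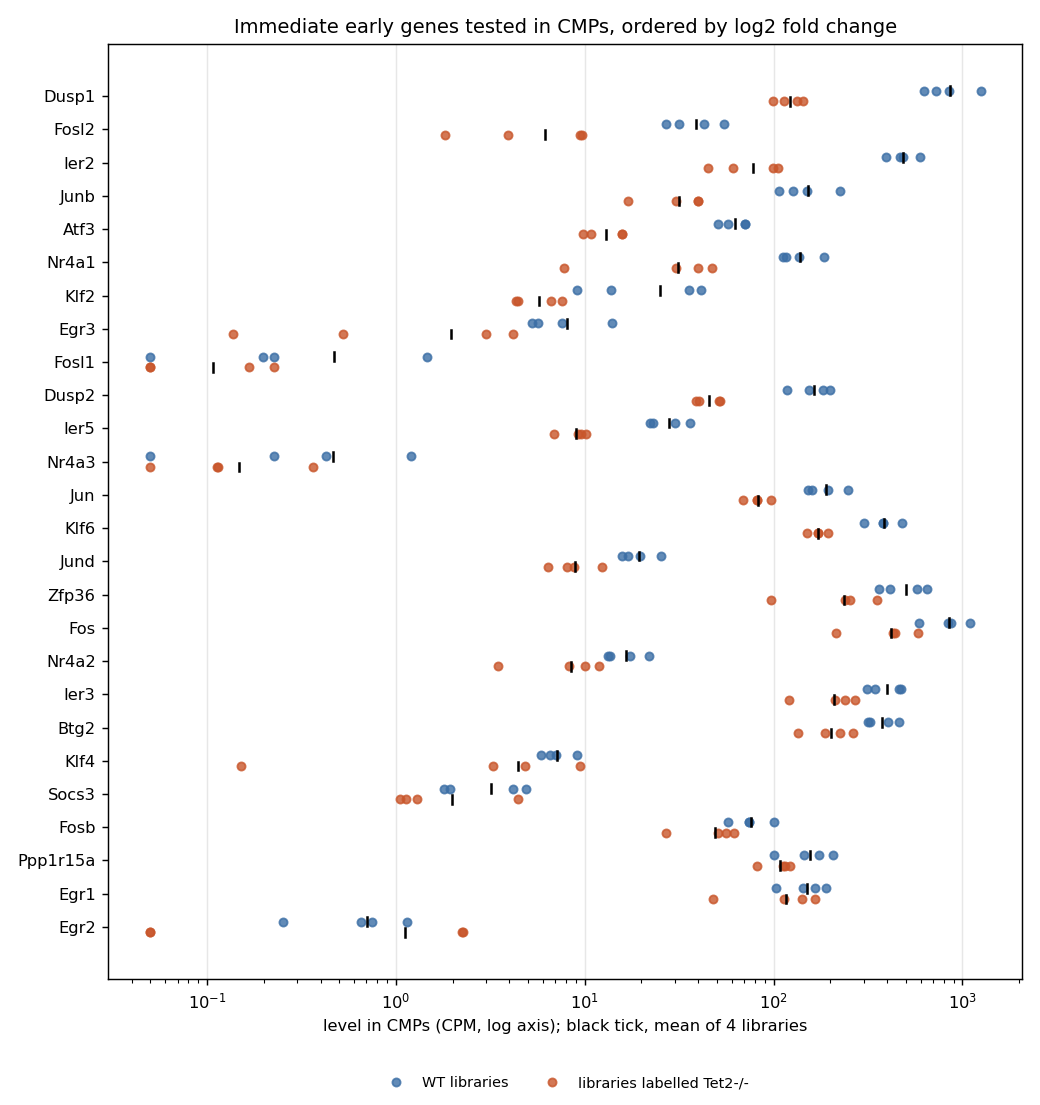
Level in CPM on a log axis of the 26 immediate early genes tested, in 4 WT libraries (blue) and 4 libraries labelled Tet2-/- (orange), ordered by log2 fold change, with a black tick at the mean of each group; values under 0.05 CPM are drawn at 0.05. For Dusp1 the orange points lie at 98.9 to 143 CPM and the blue at 624 to 1252, and Egr2 alone has a higher mean in the libraries labelled Tet2-/-.

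Several inflammatory genes were lower as well. Of the NF-kB and inflammation list, 0 of 28 members tested were called higher and 5 lower, with a median of -0.51. DESeq2 called 9 members lower, and the fit of all 46 libraries 1. Tnf (ENSMUSG00000024401, chromosome 17: 35199381-35202007), the inflammatory cytokine, had 13.8, 11.7, 17.6 and 6.71 CPM in the libraries labelled Tet2-/- and 53.9, 29.4, 56.2 and 58.9 in WT, log2FC -1.99 (SE 0.33, adjusted p = 0.00572). The chemokine genes Ccl3 (200.3, 171, 115 and 167 against 355, 458, 742 and 481 CPM, log2FC -1.64, SE 0.24, adjusted p = 0.00333) and Ccl4 (249, 198, 177 and 253 against 386, 532, 799.6 and 839 CPM, log2FC -1.54, SE 0.25, adjusted p = 0.00491) were called as well. Nfkbia, the NF-kB inhibitor that NF-kB itself induces, was at 116 to 299 against 474 to 622 CPM, log2FC -1.32 (adjusted p = 0.0128), and Relb at log2FC -3.66 (adjusted p = 0.0428) with 0.0755 to 1.05 against 1.91 to 8.49 CPM. Il6 was an exception at low level. It had 4.39, 3.25, 4.21 and 5.0 CPM against 0.0815, 0.455, 1.68 and 2.74, so the libraries labelled Tet2-/- lay above WT, but it was not called (log2FC 1.74, adjusted p = 0.306). Of the myeloid cytokine receptors, 1 of 25 members tested was called higher and 4 lower. Epor was the higher one, and Ifnar2 (21.9 to 34.8 against 77.8 to 94.7 CPM, log2FC -1.57, adjusted p = 0.00111), Ifngr2 (5.79 to 8.99 against 22.3 to 31, log2FC -1.84, adjusted p = 0.000818), Il6ra (log2FC -2.35, adjusted p = 0.0215) and Cxcr4 (18.2 to 25.5 against 37 to 61.6, log2FC -1.20, adjusted p = 0.0077) the lower ones. Ifnar2 and Ifngr2 are chains of the receptors for type I and type II interferon.

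Most interferon-stimulated genes had a change above 0, but 1 was called. Of that list, 1 of 64 members tested was called higher and 0 lower, with a median of 0.30 and 46 above 0. The groups did not overlap for 10 members that were higher and 1 that was lower. The gene called was Ifi44 (ENSMUSG00000028037, chromosome 3: 151730922-151749960), with 38.7, 39.2, 55.8 and 40.2 CPM against 18.3, 8.16, 19.3 and 25.1 and log2FC 1.30 (SE 0.31, adjusted p = 0.0378). It lies within 20 Mb of Tet2 on chromosome 3. No member was called higher without replicate 2, 3 or 5 labelled Tet2-/-, without WT replicate 2 or 4, without the low-count filter, with the replicate block or in the fit of all 46 libraries. Irgm1, an interferon-induced GTPase, was higher in all 4 libraries labelled Tet2-/- (97.1, 116, 129.6 and 116 against 65.9, 75.7, 67.7 and 56.3 CPM) at log2FC 0.79 (SE 0.13, adjusted p = 0.00703), which is less than 2-fold. edgeR called no member of the 17 genes of cytosolic nucleic acid sensing, whose median was -0.02, and neither did DESeq2 or edgeR at an unadjusted p under 0.05 with the 2-fold minimum. It called 1 higher without replicate 4 labelled Tet2-/-, after the GC correction or with no minimum fold. Of the MHC class I and antigen presentation list 1 of 21 was called, H2-T23, lower at 73.4 to 97.2 against 167 to 283 CPM and log2FC -1.47 (adjusted p = 0.0012). Of 23 genes that appear by name in the published work, a list taken from the study and so no independent evidence, 21 were tested, 1 was called lower (Ube2d3), none higher, and the median was -0.02.

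Of the DNA damage response and repair list, 0 of 74 members tested were called higher and 5 lower, and the median was 0.16. The members called were H2afx, the histone variant that is phosphorylated at double-strand breaks (33.9, 27.9, 19.3 and 30.6 against 149.8, 107, 240.5 and 269 CPM, log2FC -2.78, SE 0.31, adjusted p = 0.000682), Xpa of nucleotide excision repair (2.86 to 4.11 against 15.9 to 25, log2FC -2.54, adjusted p = 0.000263), Ung, the uracil glycosylase (9.97 to 14.5 against 29.7 to 40.7, log2FC -1.62, adjusted p = 0.00111), Nbn of the MRN complex (log2FC -1.10, adjusted p = 0.00659) and Ube2d3. After the GC correction the DNA damage list had 1 member called higher and 3 lower, and in the fit of all 46 libraries 0 and 2. The p53 targets had 3 of 24 called lower, none higher and a median of -0.34. DESeq2 called 6 lower, the fit with the replicate block 1 and the fit of all 46 libraries 0. Phlda3 had 0 counts in the 4 libraries labelled Tet2-/- and 2.25, 0.767, 1.52 and 1.51 CPM in WT, so it was at least 40.8-fold lower on the floor of 3 counts per library. Perp had log2FC -2.75 (adjusted p = 0.0188), and Plk2 was at 2.05 to 4.66 against 14.5 to 25.6 CPM, log2FC -2.71 (adjusted p = 0.00102). The list of DNA replication and mitosis had 0 of 47 called by edgeR, a median of 0.38 and 37 members above 0. Without overlap, 16 members were higher and 2 lower. Without a minimum fold edgeR called 12 of the 47 members higher and 2 lower. At an unadjusted p under 0.05 with the 2-fold minimum it called 0 and 1, and DESeq2 0 and 1. Its summed level was 8181 to 8509 CPM in the libraries labelled Tet2-/- and 6249 to 7623 in WT. Of 26 cyclins, CDKs and inhibitors of G1 only Mxd1, an antagonist of MYC, was called (log2FC -1.83, adjusted p = 0.0106). This call was lost with the replicate block and in the fit of all 46 libraries.

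Replication-dependent histone genes split by gene. In that list, 1 of 65 members tested was called higher and 12 lower, while the median was 0.28. The summed level overlapped widely, at 636 to 1094 CPM in the libraries labelled Tet2-/- and 564 to 1701 in WT. Hist1h1c, a linker histone, fell to 32.7, 22, 16.4 and 31.3 CPM from 48, 74.6, 83.9 and 84.6 in WT (log2FC -1.50, adjusted p = 0.0084), and Hist1h4d, an H4 gene chosen after its values were seen, rose to 80.1 to 108 CPM from 20.2 to 51.2 (log2FC 1.16, adjusted p = 0.0323). Besides Hist1h1c, the lower ones were 11 core histone genes, such as Hist2h3c2 (log2FC -4.03, adjusted p = 0.00944) and Hist1h3e (log2FC -2.39, adjusted p = 0.024). Histone genes are near-identical copies of each other, so the counting may split reads between them. The count called lower rested on single libraries: it was 18 without WT replicate 3, 11 without WT replicate 2, 3 without WT replicate 4, 3 without WT replicate 5, 4, 4, 3 and 7 without replicates 2, 3, 4 and 5 labelled Tet2-/-.

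Calls were also made in lists of the machinery that makes, folds and degrades proteins. Of the unfolded protein and integrated stress response list, 1 of 22 members tested was called higher and 4 lower. The fit of all 46 libraries called 1 lower and 0 higher. The lower ones were Ddit3, which codes for the stress factor CHOP (32.4 to 47.5 against 105 to 123 CPM, log2FC -1.50, adjusted p = 0.000306), Xbp1 (9.42 to 29.1 against 63.8 to 113, log2FC -1.94, adjusted p = 0.00875), Pdia3 (76.4 to 156 against 364 to 459.6, log2FC -1.87, adjusted p = 0.000788) and Herpud1 (log2FC -1.10, adjusted p = 0.00225). Asns, the asparagine synthetase, was the higher one (105 to 219 against 34.2 to 94.6 CPM, log2FC 1.37, adjusted p = 0.0325). The cytosolic ribosomal proteins had 83 of 88 members above 0 and a median of 0.27, but beside the copies Rps3a2 and Rps3a3 only Rpl38 was called higher (1133, 761, 1086 and 1549.8 against 472, 454, 400.5 and 399 CPM, log2FC 1.39, SE 0.19, adjusted p = 0.00225) and only Rps2 lower (543, 391, 305 and 407 against 1629.9, 1367, 1767 and 1705 CPM, log2FC -1.97, SE 0.17, adjusted p = 0.000158). Ribosomal protein genes have many processed copies in the genome, so these values too may depend on how reads were split. Among 46 translation factors 3 were called lower (Eif3f, Eif5 and Eif3j1), with Eif3f, a subunit of initiation factor eIF3, at 78.5 to 94.8 against 341 to 393 CPM and log2FC -2.12 (adjusted p = 8.09e-06). Of 48 genes of RNA decay 5 were called lower: Lsm4, Cnot7, Btg1, Lsm2 (log2FC -2.0, adjusted p = 0.000205) and Exosc3, a subunit of the RNA exosome (log2FC -2.10, adjusted p = 0.00427). Srsf6, a splicing regulator, was at 160.0 to 196 against 493 to 564 CPM (log2FC -1.52, adjusted p = 3.18e-05) and was the 1 call of 57 splicing genes. Psmd5 was the 1 call of 39 proteasome genes (log2FC -1.0, adjusted p = 0.0168). Of 33 ubiquitin-conjugating enzymes 3 were called lower: Ube2d1 (log2FC -2.86, adjusted p = 0.0013), Ube2j2 (log2FC -1.95, adjusted p = 0.000386) and Ube2d3 (171 to 381 against 559 to 693 CPM).

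In the remaining lists every call was lower. Over all genes tested, 105 were called higher and 629, or 3.92%, lower, so calls that are all lower do not mark these lists out. Idh2, the mitochondrial isocitrate dehydrogenase that makes the 2-oxoglutarate TET enzymes use, was the 1 call of 17 genes of DNA methylation (119, 62.1, 63.8 and 55.7 against 332, 352, 451 and 361 CPM, log2FC -2.31, SE 0.25, adjusted p = 0.000516). Kdm6b, a histone H3K27 demethylase, was the 1 call of 35 chromatin regulators (21.1 to 65 against 79.2 to 104 CPM, log2FC -1.39, adjusted p = 0.0295), which was lost without replicate 2 or 5 labelled Tet2-/-, without WT replicate 3, 4 or 5, without the low-count filter and in the fit of all 46 libraries. Pdk3, a kinase that restrains pyruvate dehydrogenase, was the 1 call of 23 genes of glucose metabolism (25.6 to 34.2 against 121 to 147 CPM, log2FC -2.16, adjusted p = 2.89e-05). The small GTPases had 4 of 54 called lower, Rheb (30.9 to 69.4 against 166 to 174 CPM, log2FC -1.82, adjusted p = 0.0012), Rala, Rab11a and Rhob. Chaperones had 3 of 35: Bag1 (log2FC -1.35, adjusted p = 0.00193), Dnajc2 (log2FC -1.50, adjusted p = 0.00237) and Dnajc3. edgeR called 0 of 15 genes of the BCL2 family and 0 of 22 of cholesterol synthesis. At an unadjusted p under 0.05 with the 2-fold minimum, 0 and 1 of the BCL2 family and 0 and 0 of cholesterol synthesis were higher and lower, and by DESeq2 0 and 1, and 0 and 0.

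Genes called lower tended to have a GC-rich transcript start. The first 200 bases of their transcripts had a median GC content of 69.5% (quartiles 62.8% and 73%), against 59% for all genes tested and 54% for those called higher. Of the 2565 genes at 70% or more, 11.7% were called lower, and of the 2986 below 50%, 0.904%. The share called higher ran the other way, from 1.24% to 0.273%. The median transcript length was 1949 bases for genes called lower and 2564 for all. After a correction of each library for this GC content, chosen after seeing the data, 132 genes were called higher and 519 lower, of which 507 had been called lower without it. Spi1 then had a log2 fold change of -3.19, Iscu -3.82, Dusp1 -2.81, Gata2 -2.53 and Car1 1.83. The slopes of level on this GC content differed between the genotypes without overlap, as given above, and the part of library preparation in them cannot be told apart from genotype.

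**Figure D4:**
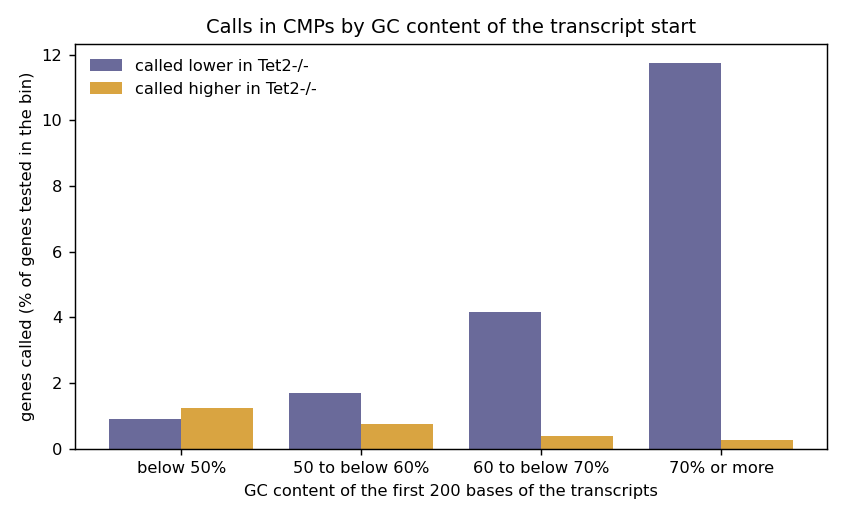
Share of the genes tested in CMPs that were called lower (violet) or higher (yellow) in the libraries labelled Tet2-/-, in % of the genes in each bin of GC content of the first 200 transcript bases. The bars for lower calls climb from 0.904% to 11.7% and those for higher calls go from 1.24% down to 0.273%.

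Promoters were described as well. The ratio of observed to expected CpG in the 250 bases before the start site had a median of 0.76 for genes called lower, 0.54 for those called higher and 0.72 for all. The interferon response element (ISRE), on either strand, was found in 4.69%, 3.46% and 2.75% of promoters of genes called higher, called lower and tested. For the CCAAT box the shares were 35.9%, 33.5% and 37%, and for TATAAA 7.81%, 4.55% and 6.37%. They are descriptions with no test.

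The same genotype comparison in GMPs and MEPs, which rests on other libraries with the same replicate numbers, was set beside these changes; whether the numbers mark the same mice was not stated in the labels. In GMPs 51 genes were called higher (0.308% of those tested) and 672 lower (4.06%), and in MEPs 22 (0.147%) and 629 (4.21%). Genes lower in CMPs were often lower there as well: 341 were shared with GMPs (54.7% of the CMP genes tested in both, 51.4% of the GMP genes) and 435 with MEPs (71.7% and 69.6%), and 258 were called lower in the 3 populations. Of the genes higher in CMPs, 8 were shared with GMPs (9.09% and 17.4%) and 6 with MEPs (5.94% and 30.0%). Most genes higher in CMPs had a change above 0 in the other populations as well, 81.8% in GMPs with a median of 0.45, and 83.2% in MEPs with a median of 0.33. No gene called in CMPs was called in the opposite direction in either. Spi1 had -3.08 in CMPs, -2.61 in GMPs and -3.45 in MEPs, Iscu -4.0, -4.45 and -4.04, and Dusp1 -2.82, -4.20 and -2.53. For the erythroid and metal genes the 3 values were 2.03, 0.02 and 0.27 for Car1, 2.23, -0.81 and 0.47 for Slc40a1, and 2.65, -0.36 and 0.15 for Mt2.

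A test of the difference itself, the effect in CMPs less the mean of those in GMPs and MEPs, called 0 of 22360 genes (0.0%) in the edgeR fit of 46 libraries, where 795 had an unadjusted p under 0.05, or 3.56%. A fit of the CMP, GMP and MEP libraries alone called 8 genes with a log2FC in CMPs above that mean and 1 with one below it, and limma voom with the replicate number within a genotype taken as the animal, an assumption, 7 and 3. In the fit of the 3 populations these were, with the difference in log2FC, Slc40a1 (2.37 at an adjusted p of 0.0189), Mt1 (1.35 at an adjusted p of 0.0189), Mt2 (2.76 at an adjusted p of 0.032), Atp7b (2.46 at an adjusted p of 0.0448), Car2 (1.49 at an adjusted p of 0.032), Ctse (1.61 at an adjusted p of 0.0448), Specc1 (1.74 at an adjusted p of 0.0498) and Minpp1 (1.65 at an adjusted p of 0.00783) above it, and Phlda3 (-5.37 at an adjusted p of 0.032) below it. Of these, 6 are genes of metal handling or the erythroid lineage described above (Slc40a1, Mt1, Mt2, Atp7b, Car2 and Ctse), and their difference was called in that fit alone. Minpp1 and Phlda3 were the 2 genes called in both that fit and limma voom. Minpp1 had a log2FC of 0.12 in CMPs, -2.37 in GMPs and -0.73 in MEPs. Phlda3, at 0 counts in all CMP libraries labelled Tet2-/-, had fitted values of -5.85 in CMPs, 1.88 in GMPs and -2.66 in MEPs, of which the first depends on the prior count.

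**Figure D5:**
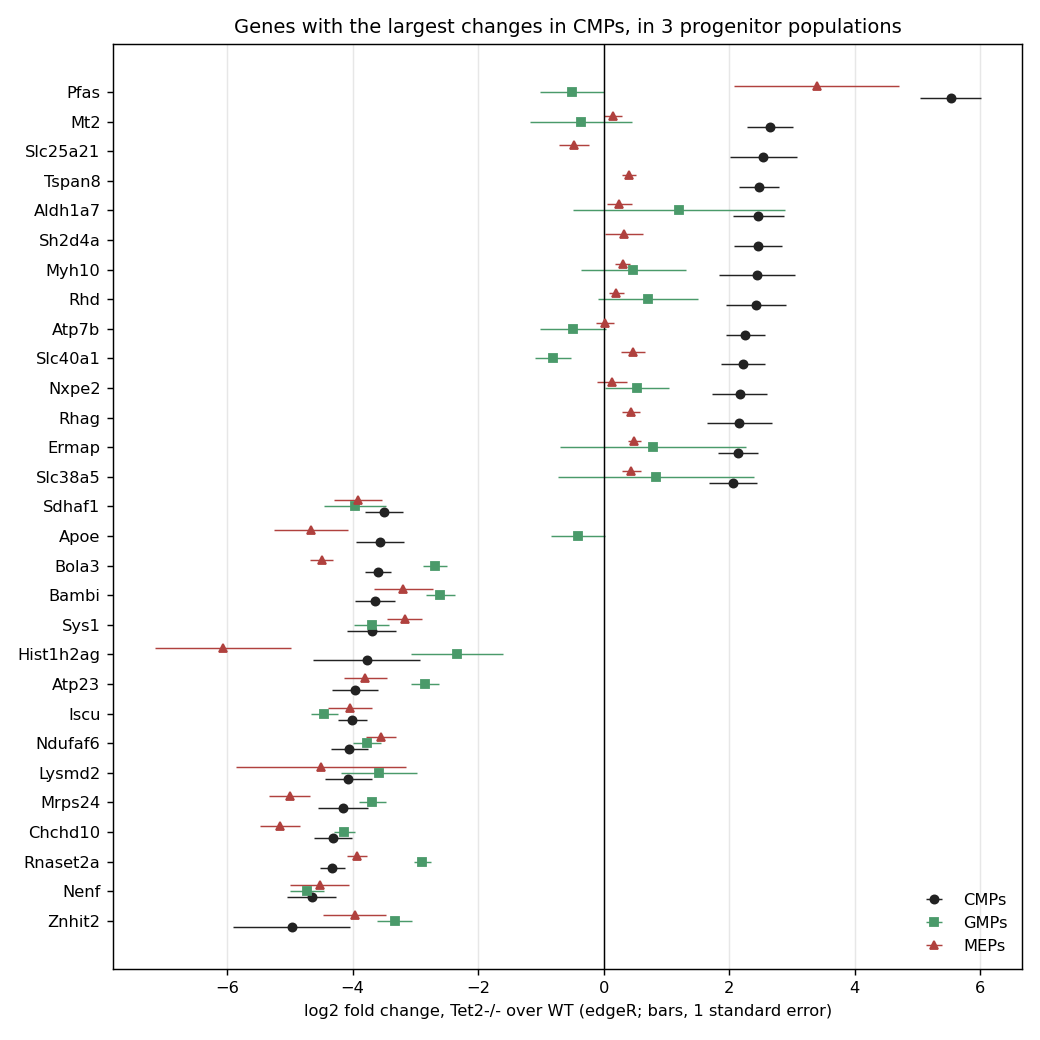
Log2 fold change (labelled Tet2-/- over WT) with 1 standard error from separate edgeR fits in CMPs (black), GMPs (green) and MEPs (red) for the genes with the largest changes in CMPs, 4 libraries per genotype; Nnt is left out, and a missing point is a gene not tested in that population. Most lower genes lie together in the 3 populations, as Iscu does at -4.0, -4.45 and -4.04, while for Slc40a1 the CMP point at 2.23 lies apart from -0.81 and 0.47.

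Around Tet2 itself, 181 genes within 20 Mb on chromosome 3 were tested, 4 were called higher and 8 lower, and their median was 0.08. The higher ones were Ifi44, Pde5a (log2FC 1.43, adjusted p = 0.0342), Clca3a1 (log2FC 1.44, adjusted p = 0.0193) and Ndst3, which had 1.06, 1.92, 1.51 and 0.654 CPM in the libraries labelled Tet2-/- and 0 counts in WT, at least 29.1-fold higher on the floor of 3 counts per library. Among the lower ones were Ppa2, the mitochondrial pyrophosphatase that is a near neighbour of Tet2 (ENSMUSG00000028013, chromosome 3: 133310110-133378235; 19.9, 14.6, 18.7 and 17.6 against 102, 102, 85.5 and 95.7 CPM, log2FC -2.44, SE 0.14, adjusted p = 2.56e-05), Mfsd14a (log2FC -1.59, adjusted p = 0.000361), 2410004B18Rik (log2FC -3.0, adjusted p = 0.000558), Ube2d3, S1pr1, the sphingosine-1-phosphate receptor that guides blood cells out of tissues (log2FC -1.12, adjusted p = 0.0285), Cnn3 (log2FC -1.77, adjusted p = 0.0417), Snx7 (log2FC -2.41, adjusted p = 0.00909) and Rtca (log2FC -1.33, adjusted p = 0.00214). Ppa2 had -2.85 in GMPs and -2.76 in MEPs.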

How the data were processed

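Bulk RNA-seq was done on sorted mouse bone marrow progenitors, and the values used are the read counts per gene that the authors deposited, unnormalised, in one table of 46 libraries and 55421 genes. Per the labels, RNA of 200 sorted cells was amplified with a full-length SMART-seq kit, and the submitters' processing notes list Trim Galore 0.6.7, HISAT2, DESeq2 and the build mm10, with mm9 also listed. The methods of the study name another Trim Galore version, and the number beside HISAT2 was unsure and is left out. The program and annotation that made the counts are not given in the sources used here, nor is whether strand was used. Amplification without molecular identifiers means that counts are not independent molecules. The floors cover counting error only, while the standard errors of edgeR also include the spread between libraries. A second table, of other libraries, was not used here.

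The 4 CMP libraries of each genotype were compared in R 4.3.3 with edgeR 4.0.16 (filterByExpr, TMM scaling, prior count 2, quasi-likelihood test, two-sided), and every adjusted p in the text is from it unless another tool is named. A gene was called at a Benjamini-Hochberg adjusted p under 0.05 over all genes tested and a change of at least 2-fold. Levels (CPM) are counts scaled by TMM library sizes. Single values were compared by an exact permutation test over the 70 arrangements of 8 libraries. On simulated counts for this comparison (16047 genes), 28 of 200 genes changed 2-fold and 130 of 200 changed 4-fold were called, with 0 and 5 false calls. DESeq2 called 62 and 160, with 49 and 61 false calls. Alternatives were DESeq2 1.42.0, its size factors (RLE) in edgeR, no low-count filter, no adjustment, no minimum fold, the replicate number as a block, no genes of X and Y, equal depth, each library left out, one fit over 46 libraries, and levels corrected per library for GC content at the transcript start (200 bases), the last chosen after seeing the data. The difference of the genotype effect between CMPs and GMPs with MEPs was also fitted with limma 3.58.1 (voom, replicate number within a genotype taken as the animal and fitted as a random effect, correlation 0.0217).

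Positions and transcript sequences for GC content are from GENCODE vM21 (mm10), matched for 55240 genes, and promoters are from RefSeq (GRCm38.p6), matched by symbol for 10262 of 16047 genes tested. The comparison, the gene lists and the naming rule were chosen with earlier results of these data known. The rule named the 15 called protein-coding genes of largest change in each direction whose groups did not overlap and whose higher group had at least 20 CPM, up to 4 called members of each list by smallest p, gate genes, genes named in the published work, copies of Rps3a1 and called genes within 20 Mb of Tet2. Genes said to be chosen after their values were seen fall outside it. The legends of the study give 4 mice for the progenitor comparison, so replicates were taken as separate mice.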

Additional observations from a re-analysis of the deposited data

Results flagged for a closer look

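In 12 of 236 groups of 4 libraries looked at (called or described genes in each genotype), 1 library lay far from the other 3 by the gap relative to the range, and chance gives about 1 in 20 such groups. In 6 of the 12 the library was replicate 2 labelled Tet2-/-. For the erythroid gene Rhag it had 88.7 CPM against 158 to 164 in the other 3 of its group, and for the amino acid transporter gene Slc38a5 64.8 against 105 to 111. In 4 genes called lower it was the highest of its group, with 69.1 CPM for Eif5 (others 39.1 to 44), 119 for Idh2 (others 55.7 to 63.8), 5.53 for Il6ra (others 1.63 to 2.13) and 117 for Rab11a (others 40.7 to 44.8). Each of these 6 values lay toward the WT libraries. WT replicate 2 was the far library for Nxpe2 at 32.9 CPM (others 10.9 to 13.7), Pdia3 at 364 (others 446 to 459.6) and Eif3j1 at 34.1 (others 43.1 to 43.8), also toward the other genotype. Without replicate 2 labelled Tet2-/- edgeR called 112 genes higher and 613 lower, and without WT replicate 2 121 and 576. In the libraries labelled Tet2-/-, Ifi44 had 55.8 CPM in replicate 4 (others 38.7 to 40.2), Ung 14.5 in replicate 3 (others 9.97 to 10.3) and Gsr 15.5 in replicate 5 (others 21.1 to 22). The cause of these values was not tested.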

How the results depend on the processing

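The 105 higher and 629 lower calls became 321 and 914 with DESeq2 (25911 genes tested), 303 and 989 without adjustment, 274 and 831 with no minimum fold, 76 and 555 with no low-count filter (25911 genes), and 12 and 273 in the fit of all 46 libraries (22360 genes), against 16047 genes for the first counts. DESeq2 and the 46-library fit thus changed both the model and the genes tested, and the cause was not tested. Leaving out 1 library gave 74 to 121 higher and 508 to 613 lower. With the replicate block the counts were 46 and 481, but same-numbered libraries did not deviate together (correlations of -0.017 to 0.026), nor did each correlate best with its own number, so the numbers are not taken as pairs. The test of the difference between CMPs and the other 2 populations went from 0 calls to 9 over CMP, GMP and MEP libraries alone and to 10 with limma voom. None of the 126 called genes that the text or the naming rule singles out changed direction, and 52 of them were called in every alternative fit. As they were called in the same libraries, the kept direction is no independent support. Uncalled gate genes did turn: Cd34 had a log2 fold change of 0.047 after the GC correction (-0.21 without it), and Ly6a 0.17 with the replicate block and -0.50 to 0.58 with 1 library left out (-0.14 with all 8 and no block). On simulated counts, most genes changed 2-fold were not called, so uncalled genes cannot be read as unchanged.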
